A study of Mus musculus with 2 samples.

Results

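Unspliced antisense models are stretches of the genome covered by reads without a splice junction, on the strand opposite to a gene. They were taken from long-read RNA-seq of the adrenal gland of C57BL/6J mice, in which 1 read follows a whole cDNA copy of an RNA. The study held 1 group of 2 libraries, biological replicates 1 and 2, made from separate tissue samples, with no second condition. A description of both names females, although the sex field was left uncollected, and the age is unknown. No treatment or allele is given beyond the strain. A model was kept when the deposited table classed it as antisense, gave it 1 exon and counted at least 5 reads in that library. This left 1175 models in replicate 1 and 312 in replicate 2, together 1487 of the 180226 models counted. The models were thus chosen by their own read counts, so every count below is a description without a test.

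Antisense transcripts are made from the strand opposite to a gene and may run through its exons, its introns or the region around its ends. In mammals many are unspliced, lowly expressed and kept in the nucleus, and some are known to act on the gene that they overlap. In cDNA sequencing, reads that map opposite to a gene can also be formed during reverse transcription, for example by priming on A-rich sequence, so the bases near the 3′ end of an antisense model are part of its usual description. The sources used here do not say how the reads were oriented or how the model ends were set.

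The 30-base windows below show sequence at or close to the 3′ end of models that hold many of the reads and lie inside a single exon of the opposite gene. They were read from the GENCODE M21 transcripts of mm10 and turned onto the strand of the antisense model, 5′ to 3′. Capitals mark a run of at least 10 A. The window of Gnb1 lies wholly inside its model, with the run ending 10 bases before the last base, and the other windows take in the model end. The first group has such a run close to the 3′ end of the model, and the second group, shown for contrast, has none.
Gnb1, chr4:155558083-155558112, minus strand: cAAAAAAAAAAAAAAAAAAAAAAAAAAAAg
Tacc1, chr8:25158022-25158051, plus strand: taagattaaggcAAAAAAAAAAAAAAAAAA
Abhd2, chr7:79365104-79365133, minus strand: tgatggttctcAAAAAAAAAAAAAAAAAAA
Klf13, chr7:63887636-63887665, plus strand: gaaactttggacagAAAAAAAAAAAAAAAA
B4galt1, chr4:40805231-40805260, plus strand: ggatcttgggacagAAAAAAAAAAAAAAAA
Sept2, chr1:93507855-93507884, minus strand: aaaagAAAAAAAAAAAAAAAAAAAAAcccc
Map1b, chr13:99424404-99424433, plus strand: tctcgagtagctAAAAAAAAAAAAAAAAAA
Slc5a3, chr16:92080842-92080871, minus strand: cAAAAAAAAAAAAAAAAAAAAAAAAAAAAc
Soat1, chr1:156428521-156428550, plus strand: agacatggtttgAAAAAAAAAAAAAAAAAA
Ado, chr10:67547485-67547514, plus strand: ccaaacgaataactAAAAAAAAAAAAAAAA
Tmem250-ps, chr2:26138369-26138398, plus strand: tggagggtgggccctcacatgtccacaaag
Gm2a, chr11:55110216-55110245, minus strand: aatgccatcccattcttgaaggcatcatac
Malat1, chr19:5800150-5800179, plus strand: ctgtgctgacttcagcggcaactgggaaaa
Star, chr8:25813749-25813778, minus strand: tgctggagattgaccctggattccttggaa
In the opposite transcript the same run is a run of T, and the models of the first 10 genes lie wholly over 3′ untranslated regions.

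The models held 24213 of 810239 reads in replicate 1, which is 2.99% (95% Clopper-Pearson interval 2.95 to 3.03). In replicate 2 they held 4200 of 587861 reads, which is 0.714% (0.693 to 0.736). The mean was 1.85 ± 1.61% (SD, n = 2), so the share differed between the libraries by far more than counting error. Unspliced genomic models, which lie in a gene on its own strand, held 2.97% and 1.42% of reads in replicates 1 and 2 at the same count minimum. Intervals cover counting error only, since amplified reads are not independent molecules. In bulk tissue, fewer cells of a type and less RNA per cell cannot be told apart.

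The tissue markers were in place in both libraries. All 6 adrenal cortex markers were detected, with a summed level of 77322 and 90942 CPM (reads scaled to a common library total) in replicates 1 and 2, as were all 6 chromaffin markers, with 8210 and 9892 CPM. None of the 4 kidney markers had a read, and the liver and muscle lists had 1 read each, in replicate 1. The macrophage list, with 3 of 3 genes detected, summed to 970 and 170 CPM, the erythroid list, with 2 of 2, to 1298 and 146 CPM, and the adipocyte list, with 3 of 3, to 126 and 35.7 CPM. All 3 were higher in replicate 1, as was the antisense share, and their part in it was not tested.

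Most models were small in count. The median was 8 reads in both libraries, the highest 1578 and 254, and 35 models of replicate 1 and 4 of replicate 2 reached 100 reads. The 10 models with the most reads took 20.4% of the antisense reads of replicate 1 and 28.7% in replicate 2. Just inside the minimum, 245 and 76 models had 5 reads (6.17 and 8.51 CPM in replicates 1 and 2), and just outside it 367 and 132 had 4. Below the minimum the class went on: in all there were 8846 and 5384 unspliced antisense models, of which 59.6% and 74.1% had a single read. The median model was 1658 bases long in replicate 1 (quartiles 1024 and 2405) and 3084 in replicate 2 (2603 and 3653). Unspliced genomic models had the same difference in length, with medians of 1523 and 3001 bases in replicates 1 and 2. The length is that of the model, not of its reads, and 6 models of replicate 1 were shorter than 50 bases. The sense gene, the annotated gene with the most exon bases under the model, was protein-coding for 1053 and 265 models and a long intergenic noncoding RNA for 22 and 17.

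Antisense models lay over exons of the opposite gene more often than genomic models did. In replicate 1, 712 of 1175 models (60.6%, 57.7 to 63.4) and in replicate 2, 228 of 312 (73.1%, 67.8 to 77.9) covered at least 1 exonic base of a gene on the other strand. Among unspliced genomic models the same share was 19.6% of 1345 in replicate 1 and 20.1% of 623 in replicate 2. An antisense model is by definition opposite a gene and a genomic model need not be, so the classes differ here partly by how they were named. At least 1 base of a last exon was covered by 44.2% and 59.9% of antisense models in replicates 1 and 2, and by 15.5% and 14.9% of genomic models.

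**Figure D1:**
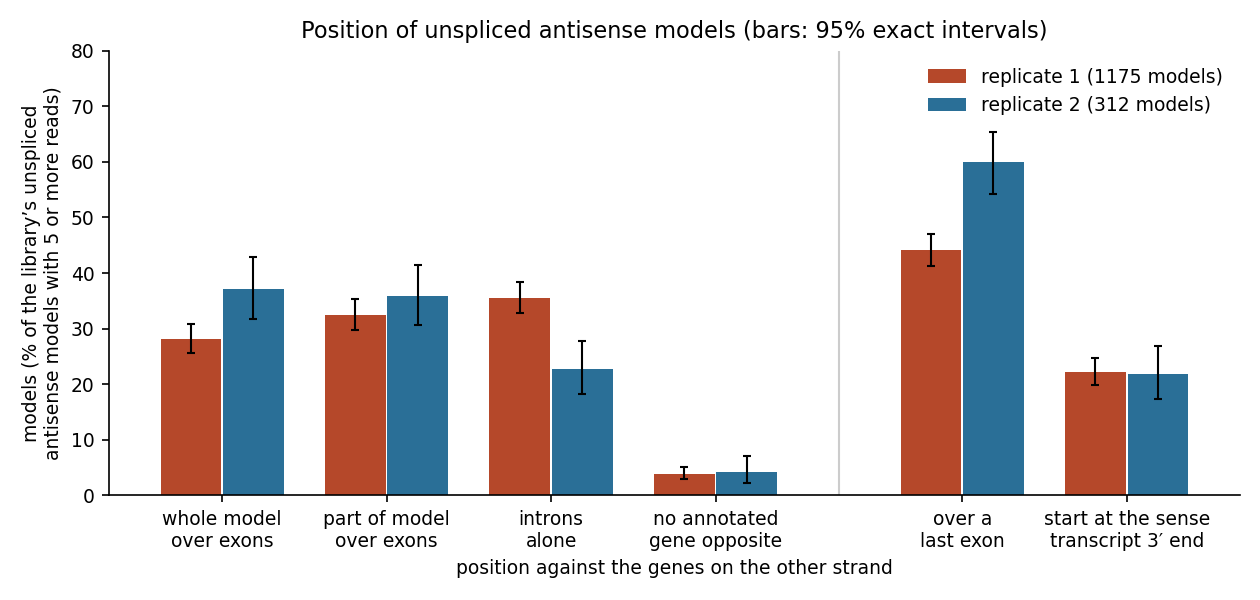
Share of the unspliced antisense models of each library (y axis, percent; error bars are 95% exact intervals) by position against the genes on the other strand; the 4 positions on the left add to all models, and the 2 on the right are counted separately. Introns alone took 35.5% of replicate 1 models and 22.8% of replicate 2 models, and the start at a sense 3′ end was at 22.2% and 21.8%.

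Split by position, 330 models of replicate 1 lay wholly over exons, 382 partly over exons, 417 in introns alone and 46 opposite no gene of GENCODE M21. In replicate 2 these were 116, 112, 71 and 13. The wholly exonic models had the higher counts, with medians of 13 and 9 reads in replicates 1 and 2, against 8 and 8 in introns, and they held 54.9% and 43.9% of the antisense reads. At least 1 base of a 3′ untranslated region was covered by 400 and 135 models in replicates 1 and 2 (34.0% and 43.3%), of coding sequence by 305 and 95 (26.0% and 30.4%), and of a 5′ untranslated region by 81 and 27 (6.89% and 8.65%). At least 50% of the model lay over a 3′ untranslated region in 293 models of replicate 1 (24.9%) and 103 of replicate 2 (33.0%), and those models took 47.6% and 35.0% of the antisense reads.

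Many models began where the opposite message ends. The 5′ end of the antisense model fell on the exact base of an annotated 3′ end of the sense gene in 261 models of replicate 1 (22.2%) and 68 of replicate 2 (21.8%), with 44.2% and 23.5% of the antisense reads. Widening the match to 50 bases gave 266 and 70. Ends at the other side of the gene were rarer, since 63 and 17 models had their 3′ end within 50 bases of an annotated start of the sense gene. The wider match thus added 5 and 2 models, and the exact coincidence is one of model coordinates, not of read ends.

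Another set followed a gene on its own strand. In replicate 1, 180 models (15.3%) and in replicate 2, 55 (17.6%) started within 5 kb downstream of an annotated gene on the same strand. Of these, 19 and 11 abutted or overlapped the end of that gene.

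Of the named loci of that kind, the one with the highest level in its lower library lies downstream of Cyp11b1, the steroid 11-beta-hydroxylase that makes corticosterone in the mouse. On the minus strand of chromosome 15, from 74831509 to 74834125, 3 abutting models of replicate 1 held 152, 68 and 12 reads, and 1 model of replicate 2 held 165. They were opposite introns of Gml2. The first of them begins on base 74834125, the last base of Cyp11b1 at its 3′ end, and the model of replicate 2 begins 576 bases further on. The locus reached 286 and 281 CPM in replicates 1 and 2 (mean 284 ± 4.0, SD, n = 2), with a ratio of 1.02 (0.832 to 1.25). It was named by the level in its lower library, a rule that favours like levels, so this ratio is a description only. Gml2 itself had 63 and 137 reads in replicates 1 and 2. Unspliced sense-strand models over the locus, counted by position and not by gene, had 49 and 137. Cyp11b1 had 11278 and 18259 reads. Its related neighbour Cyp11b2 may make the split of its own reads uncertain, which was not tested.

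Sense-strand unspliced models often covered the same span. A sense-strand model without a junction that shared at least 50% of both lengths was present for 441 antisense models of replicate 1 (37.5%, 34.8 to 40.4) and for 143 of replicate 2 (45.8%, 40.2 to 51.5). Both ends were within 50 bases of each other in 252 and 50 of these. The median ratio of antisense to sense-strand unspliced reads was 1.77 (quartiles 1.11 and 4) in replicate 1 and 1.85 (0.858 and 4) in replicate 2. Across these 441 and 143 models the Spearman correlation of the counts was 0.598 and 0.434. With all reads of the sense gene it was 0.237 and 0.139, but over all 1175 and 312 models. Those opposite no annotated gene entered without sense reads, so the 2 pairs of values cover different sets. These correlations are across models of 1 library, which share its depth, and models are not independent replicates. The count minimum applied to the antisense side alone, which raises the ratio.

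**Figure D2:**
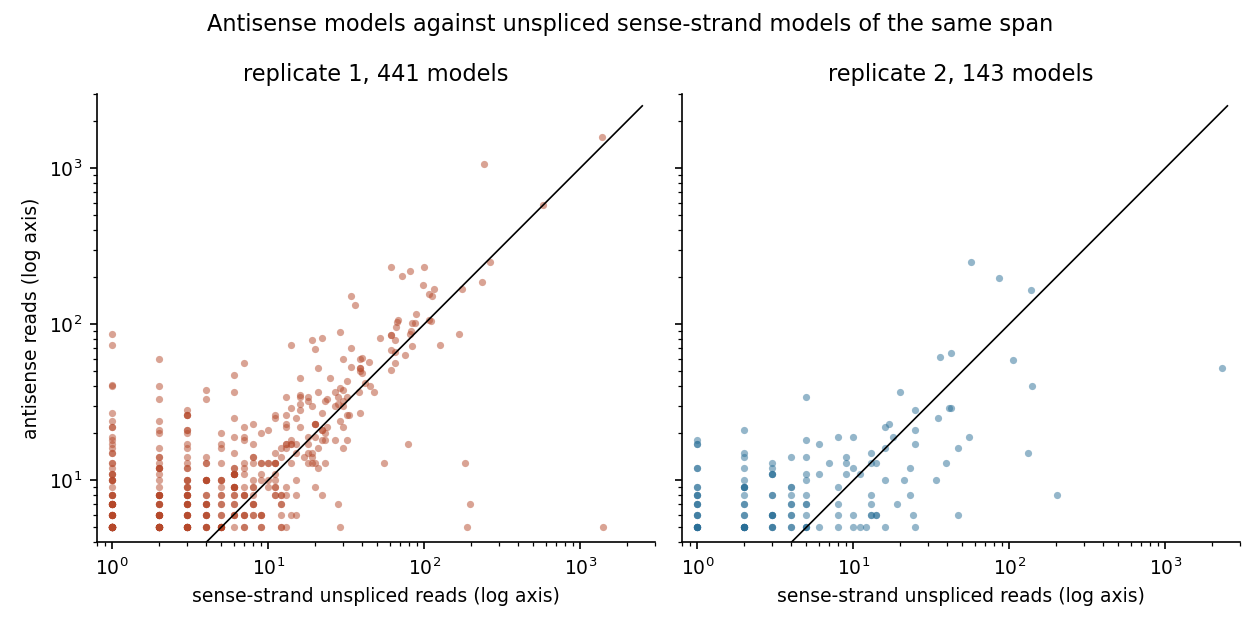
Antisense reads (y axis) against reads of unspliced sense-strand models over the same span (x axis), both on log axes, for 441 models of replicate 1 and 143 of replicate 2; the line marks equal counts. In replicate 1, 52.8% of the pairs lay within 2-fold of the line, and in replicate 2, 41.3%.

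An annotated sense gene had fewer reads in all than the model opposite it in 325 of 1129 cases in replicate 1 (28.8%) and in 60 of 299 in replicate 2 (20.1%). The sense gene had 0 reads opposite 38 and 10 of these models.

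Sequence near the 3′ end could be read for models that lie inside 1 exon, 321 in replicate 1 and 114 in replicate 2, of which 272 (84.7%) and 104 (91.2%) had the whole window of 40 bases before and 20 after the end within an exon. A run of 10 or more A was present in 166 of the 272 models of replicate 1 (61.0%, 55.0 to 66.9) and in 34 of the 104 of replicate 2 (32.7%, 23.8 to 42.6). Windows of the same 60 bases over the antisense strand of 52958 last exons held such a run in 0.607% of 966744 cases. At the middle of the same models, among those of 180 bases or longer, the run was in 2 of 266 (0.752%, 0.0912 to 2.69) in replicate 1 and in 0 of 104 (up to 3.48%) in replicate 2. At their ends it was in 165 of the 266 and in 34 of the 104. A run of 10 or more T was in 3.68% and 8.65% of the end windows. Models with a run at the end had a median of 15.5 and 11.5 reads in replicates 1 and 2, against 13 and 8.5 without one, and took 65.7% and 40.2% of the reads of the readable models. Intron models and most genomic models could not be read in this way, so the share applies to models inside exons. The part of such sequence in the antisense counts was not tested.

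**Figure D3:**
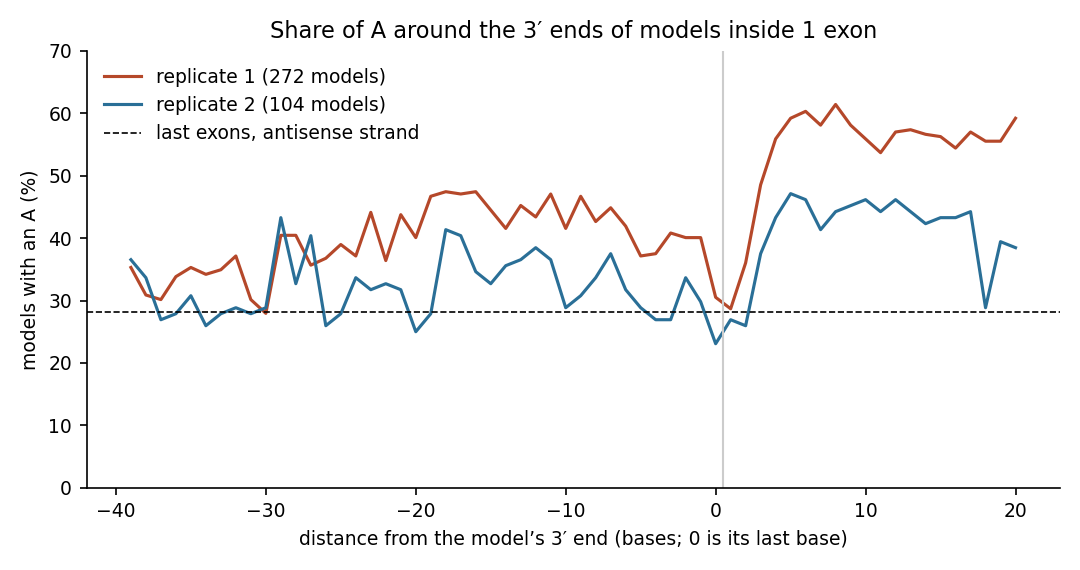
Percent of readable models with an A at each base (y axis) from 39 bases before the last base of the model to 20 after it (x axis), for 272 models of replicate 1 and 104 of replicate 2; the dashed line is the share of A over the antisense strand of last exons, 28.2%. The share of A was highest 8 bases after the end in replicate 1, at 61.4%, and 5 bases after it in replicate 2, at 47.1%.

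The run lay after the end in 99 models of replicate 1, inside the model in 61 and across the end in 6, and in replicate 2 in 21, 11 and 2. Strands differed in this: in replicate 1 the run lay after the end in 62 of 77 plus-strand models and in 37 of 89 minus-strand models, and in replicate 2 in 15 of 19 and 6 of 15. The windows of Klf13 and B4galt1, both plus-strand models, show the first arrangement, and those of Gnb1, Sept2 and Slc5a3, all minus-strand, show the second. Abhd2, also a minus-strand model, shows the first.

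Looked up in the other library, 557 of the 1175 models of replicate 1 (47.4%, 44.5 to 50.3) overlapped at least 1 unspliced antisense model of replicate 2, of any count, and 241 of the 312 models of replicate 2 (77.2%, 72.2 to 81.8) overlapped one of replicate 1. Genomic models were found again at 54.9% and 77.7%. With 20 or more reads, the shares were 67.9% of 234 models and 97.1% of 35. The replicate looked into was the shallower one for replicate 1 and the deeper one for replicate 2.

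Over all models found again, the 3′ ends recurred more closely than the 5′ ends. Among the 557 models of replicate 1 found again, the nearest 3′ end of an overlapping model in replicate 2 lay within 10 bases for 349 (62.7%), and the nearest 5′ end for 176 (31.6%). For the 241 models of replicate 2 these were 141 (58.5%) and 71 (29.5%). The median distance was 1 base for the 3′ end and 506 bases for the 5′ end in replicate 1, and 3 and 525 bases in replicate 2. The order was the same for models in introns alone: 57.9% and 59.0% of 3′ ends recurred within 10 bases, and 20.0% and 23.0% of 5′ ends. Models with a run of A at the end did not share that gap. Of the 81 such models of replicate 1, 53.1% had a 3′ end and 50.6% a 5′ end within 10 bases, and of the 31 of replicate 2, 58.1% and 54.8%. Of the readable models without a run, 66.1% of 3′ ends and 41.1% of 5′ ends recurred among the 56 of replicate 1, and 51.2% and 23.3% among the 43 of replicate 2. Some models with a run, such as those of Tacc1, Soat1 and Ado, start on the same annotated 3′ end of the sense gene in both libraries. How model ends were set is not given, and the part of the annotation in such matches was not tested.

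**Figure D4:**
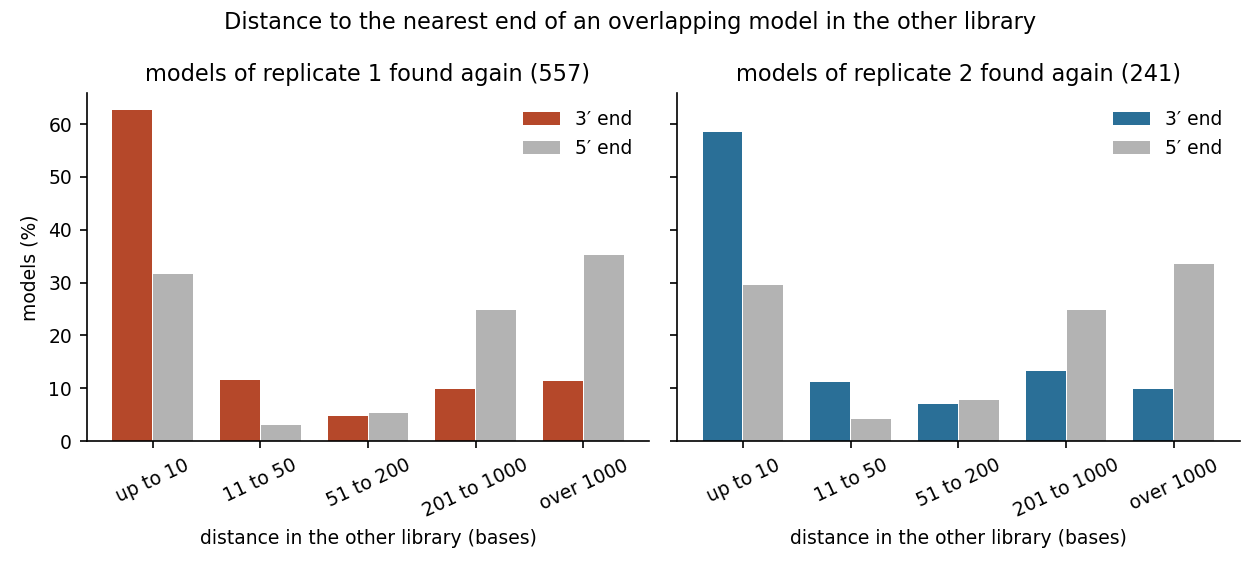
Distance from the 3′ end (coloured) and the 5′ end (grey) of each model found again to the nearest such end of an overlapping model in the other library (x axis, bases, in 5 ranges), as a percent of 557 models of replicate 1 and 241 of replicate 2 (y axis). The 3′ ends crowd into the range up to 10 bases, and 35.2% and 33.6% of the 5′ ends lie more than 1000 bases away.

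Overlapping models of both libraries on 1 strand were joined into 1319 loci over 1145 sense genes. Of these, 153 held a kept model in both libraries, 1012 in replicate 1 alone and 154 in replicate 2 alone. By reads of any count, 635 loci were covered in both, 613 had 0 reads in replicate 2 and 71 had 0 in replicate 1. No matching count of genomic loci is given. By model, antisense shares found again were 47.4% and 77.2% in replicates 1 and 2, beside 54.9% and 77.7% for genomic models. The locus counts thus cannot be read as a trait of antisense loci. Over the 153 shared loci the median level was 17.3 CPM in replicate 1 and 15.3 CPM in replicate 2, with a Spearman correlation of 0.348 across loci.

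**Figure D5:**
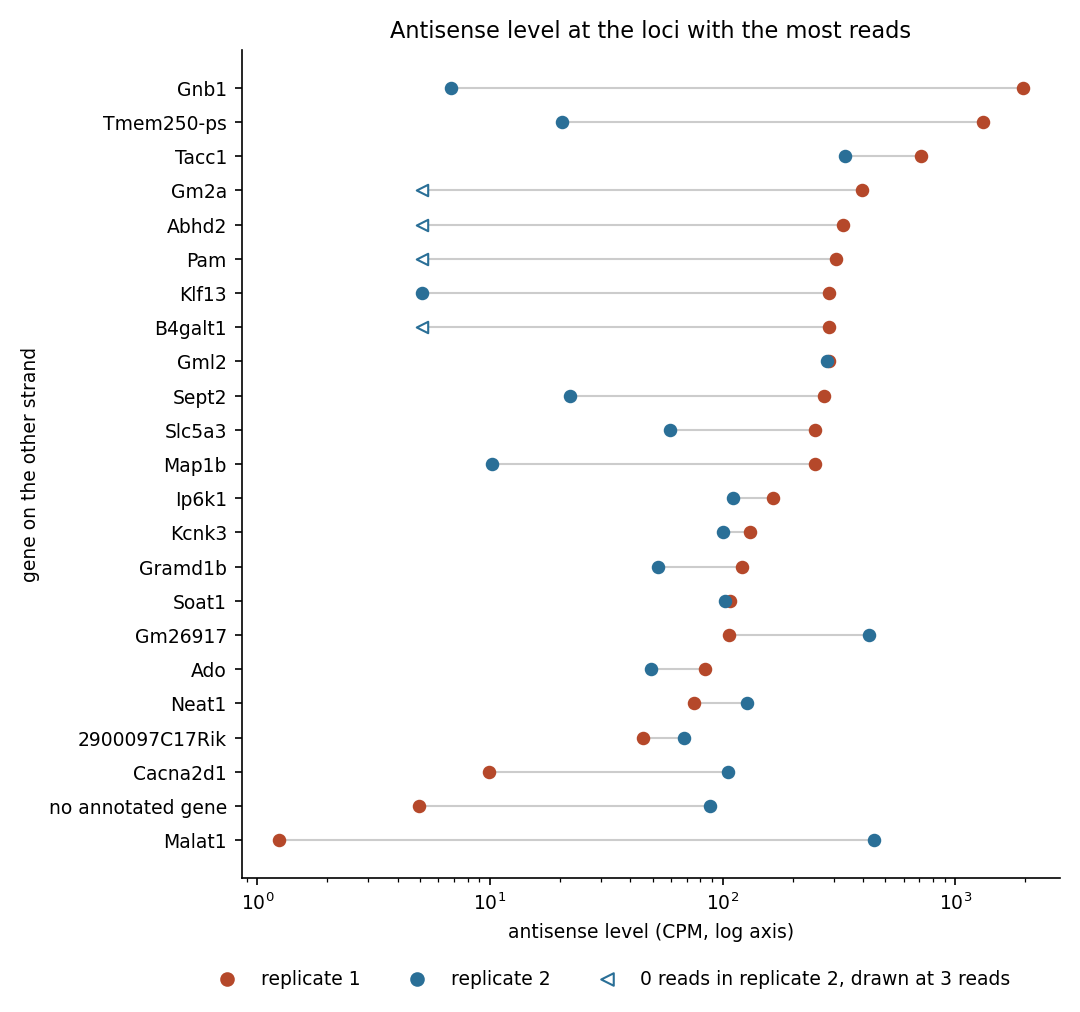
Antisense level in CPM (x axis, log) at the loci named by rank in either library or by their level in both, with the gene on the other strand (y axis); points are replicate 1 and replicate 2, and open triangles are 0 reads drawn at 3 reads. Gml2 and Soat1 had nearly equal levels, whereas Gnb1, Tmem250-ps and Malat1 were far apart.

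The locus with the most reads faced Gnb1, a beta subunit of heterotrimeric G proteins. Its model covers chr4:155558074-155559267 on the minus strand, 1194 bases that all fall in the 3′ untranslated region. It had 1578 reads in replicate 1 and 4 in replicate 2, that is 1948 and 6.80 CPM, a ratio of 286 (112 to 1052). Gnb1 itself had 1387 and 40 reads in replicates 1 and 2, and 1378 and 10 reads lay in unspliced sense-strand models over the same span. Both strands were thus high in replicate 1 and low in replicate 2. The locus was named by its rank in replicate 1, which favours a high ratio, so the ratio is a description only.

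Tmem250-ps, an annotated long noncoding RNA, followed at chr2:26136814-26138383 on the plus strand, with 1063 reads in replicate 1 and 12 in replicate 2. Its own reads numbered 243 and 25. The bounds of the antisense model were the same in both libraries, and its end window holds no run of A.

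Tacc1, which codes for a centrosomal coiled-coil protein, faced the highest antisense level among loci ranked by the lower of their libraries. The model chr8:25154552-25158031 on the plus strand had the same bounds in both libraries and lay wholly in the 3′ untranslated region. It had 576 reads in replicate 1 and 198 in replicate 2, or 711 and 337 CPM (mean 524 ± 265, SD, n = 2), and the ratio was 2.11 (1.79 to 2.49). Tacc1 had 605 and 309 reads in replicates 1 and 2. Unspliced sense-strand models over the span had 577 and 86.

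Several loci with 200 or more reads in replicate 1 had few or none in replicate 2. They were named by their rank in replicate 1, which favours a higher level there, so the folds below are descriptions only. Gm2a, the activator of ganglioside breakdown in lysosomes, faced 322 and 0 antisense reads in replicates 1 and 2, a level at least 77.9-fold higher in replicate 1 with 3 reads in place of 0. Abhd2, a lipid hydrolase, faced 268 and 0 (at least 64.8-fold), Pam, which amidates peptide hormones, 250 and 0 (at least 60.5-fold), and the galactosyltransferase gene B4galt1 233 and 0 (at least 56.4-fold). These antisense counts are of the named loci alone. Elsewhere Abhd2 faced a further model, with 28 reads in replicate 2. The genes themselves had reads in both libraries. Gm2a had 675 and 267 reads on its own strand in replicates 1 and 2, Abhd2 263 and 69, Pam 403 and 180, and B4galt1 72 and 47. Klf13, a zinc finger transcription factor, faced 233 and 3 antisense reads and had 107 and 2 of its own. The septin Sept2 faced 220 and 13 and had 83 and 24, and Map1b, a microtubule-associated protein, faced 202 and 6 and had 149 and 71. Outside this locus Map1b faced a further model, with 6 reads in replicate 2. The models at the named loci of these 7 genes all covered part of a 3′ untranslated region, and 5 of the 7 appear above with a run of A. The window of Gm2a has none, and the model of Pam was not inside 1 exon, so its end was not read. Among all readable models of replicate 1 the share with a run was 61.0%.

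Slc5a3, the sodium-coupled myo-inositol transporter, was covered more on the antisense strand of its 3′ untranslated region than on its own in replicate 1. The locus had 202 antisense reads in replicate 1 and 35 in replicate 2, with 13 and 41 reads of the gene. Ip6k1, an inositol hexakisphosphate kinase, faced 133 and 65 antisense reads with 49 and 71 of its own in replicates 1 and 2. Ado, a thiol dioxygenase, faced 68 and 29 with 61 and 41, and its model had the same bounds in both libraries.

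Replicate 2 led at a smaller set. Malat1, Gm26917 and Cacna2d1 were named by their rank in replicate 2, which favours a higher level there. Malat1, a nuclear noncoding RNA of splicing speckles, faced 1 antisense read in replicate 1 and 264 in replicate 2, at chr19:5796389-5800164 on the plus strand. Its own reads went the other way, with 1927 in replicate 1 and 199 in replicate 2. Gm26917, a long noncoding RNA beside a ribosomal RNA annotation on chromosome 17, faced 86 and 251 antisense reads in replicates 1 and 2 with 166 and 57 of its own. Reads of repeated ribosomal sequence can be shared between copies, so that locus is uncertain. Cacna2d1, an auxiliary calcium channel subunit, faced 8 and 62 with 51 and 103. Neat1, the noncoding RNA of paraspeckles, faced 61 and 75 reads spread over 6 models, with 38 and 54 reads of its own. Unspliced sense-strand models over that locus, those of other genes included, had 53 and 1279 reads in replicates 1 and 2. The noncoding RNA gene 2900097C17Rik, named by its rank in replicate 2, faced 37 and 40 antisense reads with 39 and 191 of its own, and its ratio of 0.671 (0.417 to 1.08) was within counting error.

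One of the 10 highest models of replicate 2 had no annotated gene on the other strand. It lies on the minus strand of chromosome 13 from 55185029 to 55186611, with 4 reads in replicate 1 and 52 in replicate 2. Opposite to it, unspliced models had 0 reads in replicate 1 and 2319 in replicate 2.

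Genes of steroid-producing cells were among those facing these models. Of all 9809 genes with at least 10 reads over both libraries, 988 faced one. Of the 10 genes of steroid synthesis, Star, Cyp11b1 and Fdx1 faced a model in at least 1 library; of 18 genes of cholesterol supply, Scarb1, Soat1 and Insig1; and of 9 regulators of steroid cells, Nr5a1, Mrap, Prkar1a and Prkaca. Among chromaffin genes Scg5 faced a model. The redox and iron list had 1 of 11, Sod2, and the chaperone and stress list 3 of 13, Hsp90b1, Hspd1 and Canx. The lists cannot be read as enriched or depleted, because a highly read gene has more chance of passing a count minimum and no test was made.

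Star, which carries cholesterol into mitochondria, was among the most read genes, with 7804 and 13750 reads in replicates 1 and 2. Over its 3′ untranslated region, the locus chr8:25813764-25815309 on the minus strand had 75 antisense reads in replicate 1 and 11 in replicate 2. A further locus upstream, from 25812355 to 25813411, had 24 and 5. The antisense count was thus higher in replicate 1 at both loci, while the gene had more reads in replicate 2. Both loci also lie within 5 kb downstream of Ash2l, a gene on the same strand as the models, at 687 and 2585 bases. Fdx1, the adrenodoxin that passes electrons to mitochondrial P450 enzymes, faced 49 and 29 antisense reads at its 3′ end, with 671 and 158 of its own, and the ratio of 1.23 (0.759 to 2.01) was within counting error. A second Fdx1 locus, in an intron, had 2 and 8. Within Cyp11b1, a plus-strand model had 0 and 8 reads in replicates 1 and 2.

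Soat1, which esterifies cholesterol for storage, faced models at 2 loci over its 3′ untranslated region, 1 of them at nearly equal levels in the libraries. The model chr1:156424525-156428530 on the plus strand had the same bounds in both libraries and 87 reads in replicate 1 and 60 in replicate 2. The levels were 107 and 102 CPM (mean 105 ± 3.76, SD, n = 2), with a ratio of 1.05 (0.749 to 1.49). This locus, too, was named partly by the level in its lower library, which favours like levels, so the ratio is a description only. Soat1 had 329 and 574 reads. A sense-strand unspliced model of the same bounds had 81 reads in replicate 1. In replicate 2, unspliced sense-strand models over the locus had 43 reads, but none shared 50% of both lengths. The other locus, chr1:156429104-156429793 on the same strand, had 33 and 2 reads in replicates 1 and 2, a ratio with a 95% interval of 3.06 to 103. Scarb1, the receptor for high-density lipoprotein, faced 3 and 20 intronic antisense reads, with 1548 and 4304 of its own. Insig1, which retains the sterol sensor in the endoplasmic reticulum, faced 29 and 0, with 60 and 125 of its own. Gramd1b, which moves cholesterol from the plasma membrane to the endoplasmic reticulum and stood outside these lists, faced 98 and 31 with 139 and 184 of its own.

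Nr5a1, the nuclear receptor that governs steroidogenic genes, faced 89 antisense reads in replicate 1 and 17 in replicate 2, while its own reads numbered 244 and 1104. The 2 counts thus differed between the libraries in opposite directions. Mrap, the accessory protein that brings the corticotropin receptor to the cell surface, faced the intron model with the most reads. On the minus strand of chromosome 16 from 90741210 to 90743452, that locus had 201 and 6 reads in replicates 1 and 2, and no unspliced sense-strand read lay over it in either library, which allows 3.70 and 5.10 CPM. Mrap had 259 and 20 reads. The protein kinase A genes Prkar1a and Prkaca faced 20 and 15 antisense reads in replicate 1 and 0 each in replicate 2. Kcnk3, a potassium channel that sets the membrane potential of cortex cells, faced 106 and 59 reads with 441 and 216 of its own. Its model in replicate 1 is recorded as a single base, so its span there cannot be used.

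The remaining list genes had between 0 and 61 antisense reads in a library. Sod2, the mitochondrial superoxide dismutase, faced 61 and 5 antisense reads in replicates 1 and 2, with 237 and 40 of its own. The endoplasmic reticulum chaperones Hsp90b1 and Canx faced 22 and 0, and 14 and 2, and the mitochondrial chaperone Hspd1 faced 0 and 5. Of the chromaffin genes, Scg5, a secretory granule chaperone, faced 8 and 0.

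Last, the reads of the sense genes themselves were set against those of all genes. Among the 988 sense genes with at least 10 reads over both libraries, 248 (25.1%, 22.4 to 27.9) were at least 2-fold higher in CPM in replicate 1, against 31.7% of all 9809 genes, and 380 (38.5%) were at least 2-fold higher in replicate 2, against 41.8% of all genes. Their median log2 ratio of replicate 1 over replicate 2 was -0.42, beside -0.46 for all genes. With TMM scaling the median of all genes moved to 0.01 and the split of the sense genes to 322 higher in replicate 1 and 284 in replicate 2, and with DESeq2 size factors to 0.06 and to 331 and 272. The sense genes higher in replicate 1 then made up 32.6% and those higher in replicate 2 28.7% with TMM, beside 36.7% and 33.1% of all genes, and 33.5% and 27.5% with DESeq2, beside 37.4% and 32.1% of all genes. With 1 library on each side these folds have no replicate check.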

How the data were processed

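The authors deposited unnormalised counts of reads for each transcript model; TALON built the models separately in each library, on mm10 and GENCODE M21, per the file headers and labels. Models without reads are not listed. The sources used here do not give the aligner, read orientation, platform or versions. Replicate 1 held 810239 reads in 88152 models and replicate 2 held 587861 in 92074, so that 0 reads allow 3.70 and 5.10 CPM (3 reads). CPM used the total of all reads per library. Models are described by their coordinates in the deposited annotation, exons by GENCODE M21 (overlap of at least 1 base, coordinates counted from 1). Shares carry 95% Clopper-Pearson intervals, and read ratios, replicate 1 over replicate 2, the matching binomial interval. Gene folds used a pseudocount of 0.5 reads, with TMM (edgeR 4.0.16) and DESeq2 1.42.0 size factors as alternatives. No differential test was run, because each library stands alone in any contrast. Fold calls, run finding and overlaps were checked on simulated data or recounted base by base. The labels name biological replicates of 1 donor record, so the spread may be partly technical. The models, gene lists and marker lists were chosen with earlier results of these data known. Genes are named by this rule: in each library the 10 models with the most reads, the 10 loci with the highest lower CPM, the top model per position, and list genes that carry a model. Sequences came from the GENCODE M21 transcripts, because no mm10 genome was used here. Work used Python 3.11.15 with pandas 2.3.3, scipy 1.17.1 and matplotlib 3.10.9. One list gene is not reported here.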

Additional observations from a re-analysis of the deposited data

How the results depend on the processing

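The number of models moved with the count minimum, with 2911 at 3 reads or more and 641 at 10 or more, against 1487 at 5. Leaving out a library gave from 312 (without replicate 1) to 1175 (without replicate 2). Asking for overlap of at least 50% of the model, in place of 1 base, lowered the mean share over an exon to 39.7% and over a last exon to 36.0%, from 66.8 ± 8.83% and 52.1 ± 11.1% (SD, n = 2). Asking for at least 5 reads in the other library lowered the mean share found again to 31.7%, from 62.3 ± 21.1%. Downstream of a gene on the same strand, the mean share was 6.21% within 1 kb and 24.9% within 10 kb, against 16.5 ± 1.63% within 5 kb. The share of sense genes at least 2-fold higher in replicate 1 was 32.6% with TMM and 33.5% with DESeq2 size factors, against 25.1%, while the share of all genes moved to 36.7% and 37.4%, against 31.7%. Leaving out a library turns a mean into the value of the other, so it says nothing of stability: the share of reads was 0.714% without replicate 1 and 2.99% without replicate 2. Apart from such omissions, 14 other alternatives moved their value by less than the spread between the libraries, its interval, or the limits set for counts. The share of models with a run of A, a measure chosen after seeing the data, averaged 46.9 ± 20.0%, and 35.0% had at least 12 A in the 20 bases after the end. The planned look at the genome sequence after every model was not run, because no mm10 genome was used here. No paired analysis was possible because the study has 1 group. Depth limits replicate 2 more, where 5 reads stand for 8.51 CPM against 6.17 CPM in replicate 1.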
